A study of Homo sapiens with 14 samples.

Results

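The proteasome genes described here are the 44 genes, measured by 52 probes, whose symbol starts with PSMA, PSMB, PSMC, PSMD or PSME followed by a number, out of 14547 named genes in the table. The probes of a gene were averaged. Of the 44, 34 encode subunits of the proteasome: 7 of the alpha ring, 7 of the constitutive beta ring, 9 of the base, 8 of the lid and 3 of the immunoproteasome. Another 3 encode assembly chaperones of the base (PSMD5, PSMD9 and PSMD10) and 4 encode activators of the core (PSME1 to PSME4), which gives 41 proteasome genes. The remaining 3 symbols fit the naming rule without being subunits: PSMC3IP, a factor of meiotic recombination, PSME3IP1, a binding partner of PSME3, and the pseudogene PSMD4P1. 1 further probe that the array's annotation calls PSMB9 carries an accession of PPP1R2 and was not counted.

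The measurements are log ratios from 2-colour DNA microarrays, on which RNA of treated cells and RNA of reference cells carried different dyes, Cy3 and Cy5, on the same array. All RNA came from LNCaP, a line of human prostate cancer cells that responds to androgen, grown for 36 h and then held in steroid-depleted medium for 48 h. The R1881 group received 1 nM R1881, a synthetic androgen, for 24 h. The CHX group received 25 µg/ml cycloheximide, which blocks protein synthesis on the ribosome, for 24 h, and the CHX plus R1881 group received both agents at these doses, added together. Control cells went through the same steroid-free culture without either agent. Each treatment was compared with control in 2 culture experiments (n = 2), each hybridised in both dye orientations, and CHX plus R1881 was compared with CHX directly on 2 arrays from experiment 1. All groups are 1 cell line.

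The deposited values were taken as log2 and multiplied by −1, because TMPRSS2, KLK3, KLK2 and FKBP5, genes that androgens induce in prostate cells, stood at −1.65, −0.98, −0.77 and −0.69 as deposited in R1881 versus control. Neither the base of the logarithm nor the numerator is stated, so every direction below is likely, not certain. No intensities were used here, so signal over background and the level of a gene are unknown, and ratios cannot show whether LNCaP's own marker genes were expressed. The number of experiments limits the precision. A lower ratio in bulk RNA cannot be told apart from fewer cells that express a gene. The SD over both experiments follows each ±. A gene was said to rise or fall where limma's moderated test, adjusted after Benjamini and Hochberg over all 14547 genes, gave a p under 0.05. Array values are given with the treated RNA in Cy3 first and in Cy5 second.

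The proteasome degrades proteins that carry ubiquitin chains. Its barrel-shaped core is built from alpha rings, which form the gate, and beta rings, which hold the proteolytic sites. A regulatory particle caps the core: ATPases of its base unfold the substrate and feed it in, and its lid removes the ubiquitin. Interferon exchanges the constitutive catalytic subunits for those of the immunoproteasome and raises the activators PSME1 and PSME2, while the transcription factor NFE2L1, also called NRF1, raises the genes of core, base and lid together when proteasome activity is short.

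In CHX versus control, which asks how transcripts respond when protein synthesis stops, the proteasome genes did not move as 1 unit. Of the 41, 14 rose (34.1%, against 20.5% of all genes) and 6 fell (14.6%, against 17.4%), in limma with Benjamini-Hochberg adjustment. Their median log2 ratio was 0.22, with a range from −0.84 to 1.45 and 30 of 41 above 0, and the median of all genes was 0.0021. Without CHX experiment 1 the number that fell was 2, and without CHX experiment 2 it was 3. Among genes that rose and also changed at least 1.5-fold were 9 of the 41 (12.1% of all genes): PSMA1, PSMA7, PSMB1, PSMB4, PSMC1, PSMC6, PSMD6, PSMD9 and PSME4. Only PSMB10 and PSME1 fell by at least 1.5-fold (8.41% of all genes did). The largest rises were those of PSMD6, a lid subunit, with 1.45 ± 0.14 (2.74-fold, adjusted p = 0.000448), and of PSMD9, a chaperone of base assembly, with 1.35 ± 0.13 (2.54-fold, adjusted p = 0.000197). The deepest falls were those of PSMB10, a catalytic subunit of the immunoproteasome, with −0.84 ± 0.13 (1.79-fold lower, adjusted p = 0.000836), and of PSME1, with −0.80 ± 0.05 (1.75-fold lower, adjusted p = 0.000376).

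**Figure D1:**
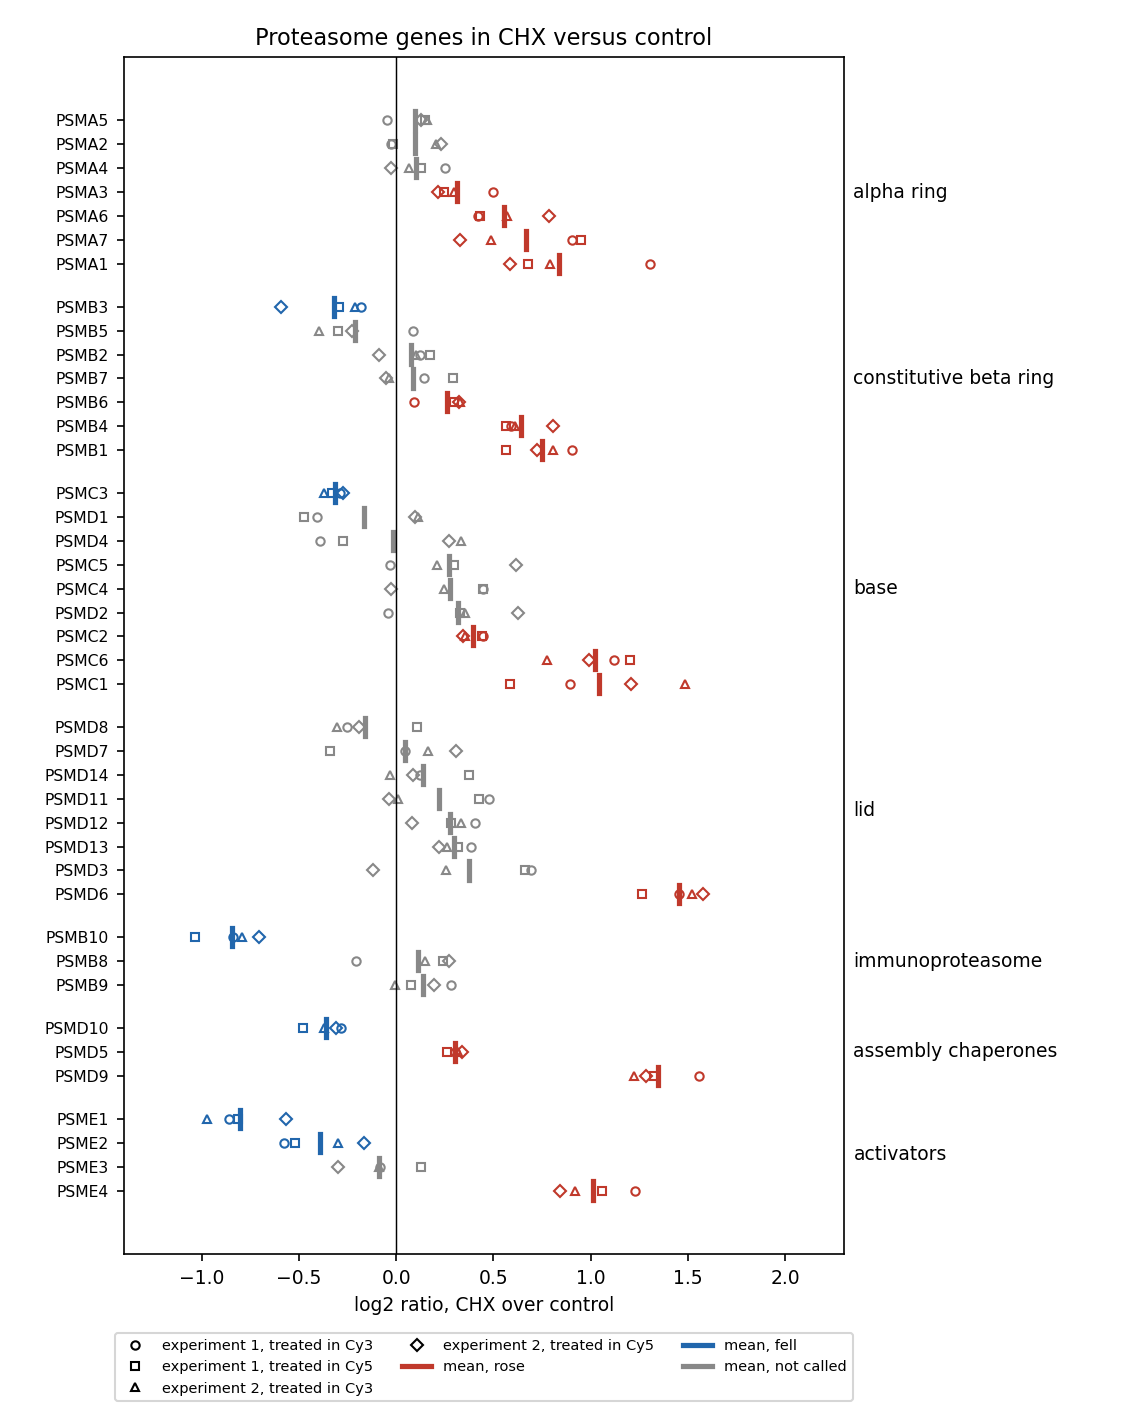
Log2 ratio of CHX over control for the 41 proteasome genes, 1 row per gene within its class, with 1 open symbol per array (2 experiments in 2 dye orientations) and a bar at the mean. Red genes rose, blue genes fell and grey genes did not pass the test. PSMD6 and PSMD9 lie farthest to the right with all 4 arrays above 1, and PSMB10 and PSME1 farthest to the left.

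The 250 bases upstream of the start used in RefSeq's promoter entry are shown for both of the largest rises and for 2 interferon-inducible genes that fell, PSMB10 and PSME2. PSME1, which fell more than PSME2, is not shown. The 2 falls shown were thus not picked by depth and do not stand for all genes that fell. They come from RefSeq (GRCh38.p14), are written 5′ to 3′ on the strand of the gene and were matched by symbol. For PSMD6 that start lies 513 bases inside the annotated gene span, and for the other 3 it is the 5′ end of the gene. Capitals mark the letters of the motifs searched on both strands: TGACNNNGC or TGAGNNNGC, the core of the antioxidant response element that NFE2L1 binds with a small MAF protein, CCAAT, the site of the factor NF-Y, TTCNNNGAA, the site of STAT proteins, and GAAANNGAAA, the site of interferon regulatory factors.
PSMD6 (chr3:64023495-64023744, minus strand): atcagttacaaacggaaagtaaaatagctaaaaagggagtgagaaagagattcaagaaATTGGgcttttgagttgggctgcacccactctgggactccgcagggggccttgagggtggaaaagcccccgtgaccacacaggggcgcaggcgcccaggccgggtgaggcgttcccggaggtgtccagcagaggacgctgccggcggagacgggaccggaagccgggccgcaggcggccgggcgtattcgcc
PSMD9 (chr12:121888540-121888789, plus strand): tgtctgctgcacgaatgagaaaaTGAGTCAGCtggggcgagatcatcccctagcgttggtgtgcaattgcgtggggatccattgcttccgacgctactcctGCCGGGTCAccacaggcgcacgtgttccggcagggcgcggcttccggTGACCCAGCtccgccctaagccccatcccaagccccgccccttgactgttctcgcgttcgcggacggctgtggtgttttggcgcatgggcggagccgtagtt
PSMB10 (chr16:67936851-67937100, minus strand): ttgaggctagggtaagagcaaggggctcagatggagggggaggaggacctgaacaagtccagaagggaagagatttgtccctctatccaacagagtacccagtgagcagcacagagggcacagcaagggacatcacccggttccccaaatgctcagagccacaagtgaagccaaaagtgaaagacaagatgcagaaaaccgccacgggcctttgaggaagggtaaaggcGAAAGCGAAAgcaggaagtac
PSME2 (chr14:24146611-24146860, minus strand): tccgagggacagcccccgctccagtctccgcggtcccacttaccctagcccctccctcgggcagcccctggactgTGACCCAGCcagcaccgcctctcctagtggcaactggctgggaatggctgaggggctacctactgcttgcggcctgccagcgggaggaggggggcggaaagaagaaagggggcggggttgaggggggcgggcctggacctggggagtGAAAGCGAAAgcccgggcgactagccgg
PSMD9 holds 3 matches of the antioxidant type, the nearest of them from −102 to −94, and PSMD6 holds none of that type and 1 CCAAT on the opposite strand. In PSMB10 the letters GAAANNGAAA span bases −21 to −12 from the start, and in PSME2 bases −28 to −19. PSME2 also holds 1 match of TGACNNNGC, from −175 to −167.

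Of the 41 genes, 36 had a promoter entry, and PSMA7, PSMB1, PSMB6, PSMB7 and PSMD4 had none. The start used was the 5′ end of the gene span for 32 of the 36 and lay inside it for PSMA1, PSMA6, PSMC2 and PSMD6. In windows of 300 bases (250 before and 50 after the start), TGACNNNGC or TGAGNNNGC was present in 18 of the 36 (50%), against 29.1% of all 35116 RefSeq promoters. By call in CHX versus control these letters were in 4 of the 11 that rose, 3 of the 6 that fell and 11 of the 19 that did not pass the test. CCAAT was in 17 of the 36 (47.2%, against 34.6% of all), and TTCNNNGAA in 4 (11.1%, against 7.66%). GAAANNGAAA was in 5 (13.9%, against 3.57%): PSMB10, PSME1 and PSME2, which fell, PSMB4, which rose, and PSMA4, which did not pass the test. In PSME1 these letters span bases 5 to 14 from the start, downstream of it. PSMB8 and PSMB9 of the immunoproteasome, which did not pass the test, held none, nor did PSMB3, PSMC3 and PSMD10, which fell. The median GC content of the 250 upstream bases was 61.6% for the 36 and 58% for all promoters. These matches describe letters in the windows and were not tested against the ratios.

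The core is represented by all of its 14 constitutive genes, of which 7 rose (50.0%) and 1 fell (7.14%) with CHX (median 0.18). Over all genes 20.5% rose, 17.4% fell and 50.4% lay above 0. The CHX counts of each class below stand against these shares. In the alpha ring, the gated outer ring, 4 of 7 rose, none of them fell, and all 7 lay above 0 (median 0.31). PSMA1 was the highest, at 1.30 and 0.68 in experiment 1 and 0.79 and 0.58 in experiment 2, a mean of 0.84 ± 0.22 (adjusted p = 0.00151), and 1 array, Cy3 of experiment 1, stood above the other 3. PSMA5 was the lowest, at −0.05 and 0.15 in experiment 1 and 0.16 and 0.13 in experiment 2, a mean of 0.10 ± 0.06 (adjusted p = 0.379), with arrays on both sides of 0. Besides PSMA1, the genes that rose were PSMA7 (0.67 ± 0.37), PSMA6 (0.55 ± 0.18) and PSMA3 (0.31 ± 0.08), while PSMA2 and PSMA4 had 0.10 ± 0.17 and 0.10 ± 0.12. PSMA3 averages 3 probes, which had 0.55, 0.30 and 0.09. Its call was lost without CHX experiment 1 (0.26, adjusted p = 0.198), without CHX experiment 2 (0.37, adjusted p = 0.0756) and without either R1881 experiment (0.31, adjusted p = 0.0542), which enters through the pooled spread. PSMA7 lost its call without CHX experiment 1 (0.41, adjusted p = 0.276) and without either R1881 experiment (0.67, adjusted p = 0.0739).

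In the constitutive beta ring 3 of 7 genes rose and 1 fell (median 0.08). The median was 0.19 without CHX experiment 2 and 0.0058 without CHX experiment 1. PSMB1 and PSMB4, subunits with no proteolytic site, rose most: PSMB1 had 0.90 and 0.56 in experiment 1 and 0.80 and 0.73 in experiment 2, a mean of 0.75 ± 0.02 (adjusted p = 0.0033), so that every array was above 0.5, and after quantile normalization it did not pass (0.51, adjusted p = 0.0589). PSMB4 had 0.64 ± 0.09 (adjusted p = 0.001), and each of its 4 probes rose when tested alone, with 0.55, 0.46, 0.86 and 0.71. PSMB3, a further subunit with no proteolytic site, was the lowest, at −0.18 and −0.30 in experiment 1 and −0.21 and −0.59 in experiment 2, a mean of −0.32 ± 0.12 (adjusted p = 0.0329), below 0 on all 4 arrays. PSMB2 had 2 probes of opposite sign, with means of 0.19 and −0.04, and as a gene stood at 0.12 and 0.17 in experiment 1 and 0.10 and −0.09 in experiment 2 (mean 0.08 ± 0.10, adjusted p = 0.516).

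Of the 3 catalytic subunits of the constitutive core, 1 rose and 2 did not pass the test. PSMB6, which cuts after acidic residues, had 0.09 and 0.30 in experiment 1 and 0.33 and 0.32 in experiment 2, a mean of 0.26 ± 0.09 (adjusted p = 0.0335), above 0 on every array. PSMB7, which cuts after basic residues, had 0.14 and 0.29 in experiment 1 and −0.04 and −0.05 in experiment 2 (mean 0.08 ± 0.18, adjusted p = 0.604), with experiment 1 above 0 and experiment 2 below. PSMB5, which cuts after hydrophobic residues and is the main target of proteasome inhibitor drugs, had 0.08 and −0.30 in experiment 1 and −0.40 and −0.23 in experiment 2 (mean −0.21 ± 0.14, adjusted p = 0.127), below 0 on 3 of 4 arrays. The differences among the 3 were not tested. The calls of PSMB6 and PSMB3 were lost without CHX experiment 1 (PSMB6 0.33, adjusted p = 0.0757; PSMB3 −0.40, adjusted p = 0.0725) and without CHX experiment 2 (PSMB6 0.19, adjusted p = 0.221; PSMB3 −0.24, adjusted p = 0.216). They were also lost without either R1881 experiment, where PSMB6 had 0.26, adjusted p = 0.0584 and PSMB3 had −0.32, adjusted p = 0.0729.

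Among the 9 genes of the base 3 rose (33.3%, against 20.5% of all genes) and 1 fell (11.1%, against 17.4%), with a median of 0.28. The base median was 0.14 without CHX experiment 2 and 0.35 without CHX experiment 1, and 0.15 on the Cy3 arrays. The ATPases PSMC1 and PSMC6 rose most. PSMC1 had 0.89 and 0.58 in experiment 1 and 1.48 and 1.21 in experiment 2, a mean of 1.04 ± 0.43 (2.06-fold, adjusted p = 0.00321), with all arrays above 0 and experiment 2 higher than experiment 1. RefSeq names 13 pseudogenes of PSMC1, and whether its probe also reads them was not tested. PSMC6 had 1.02 ± 0.20 (2.03-fold, adjusted p = 0.00074). The ATPase PSMC3 was the lowest, at −0.29 and −0.33 in experiment 1 and −0.37 and −0.27 in experiment 2, a mean of −0.32 ± 0.01 (adjusted p = 0.0227), below 0 on all arrays. The remaining ATPases had 0.40 ± 0.07 for PSMC2, which rose (adjusted p = 0.0348), 0.28 ± 0.24 for PSMC4 (adjusted p = 0.096) and 0.27 ± 0.20 for PSMC5 (adjusted p = 0.0513).

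The scaffold subunits of the base, PSMD1 and PSMD2, had −0.17 ± 0.38 and 0.32 ± 0.25, and neither passed the test (adjusted p = 0.507 and 0.0771). PSMD4, a ubiquitin receptor, had −0.39 and −0.27 in experiment 1 and 0.34 and 0.27 in experiment 2 (mean −0.02 ± 0.45, adjusted p = 0.961): both arrays of experiment 1 were below 0 and both of experiment 2 above. PSMD1 split the same way, with experiment means of −0.44 and 0.10. In the base, the calls of PSMC2 and PSMC3 were lost without CHX experiment 1 (PSMC2 0.35, adjusted p = 0.199; PSMC3 −0.32, adjusted p = 0.114) and without CHX experiment 2 (PSMC2 0.45, adjusted p = 0.104; PSMC3 −0.31, adjusted p = 0.113). The call of PSMC2 was also lost without either CHX plus R1881 experiment (0.40, adjusted p = 0.0606). PSMC5 passed without CHX experiment 1 (0.41, adjusted p = 0.0315), and PSMC4 without CHX experiment 2 (0.45, adjusted p = 0.0483).

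In the lid 1 of 8 genes, PSMD6, rose (12.5%, against 20.5% of all genes) and no member fell. Of the 8 means 7 were above 0 (87.5%, against 50.4% of all genes), with a median of 0.25. The lid median was 0.35 without CHX experiment 2 and 0.14 without CHX experiment 1. PSMD6 had 1.45 and 1.26 in experiment 1 and 1.52 and 1.58 in experiment 2, all 4 above the highest array of any other lid gene. PSMD8 was the lowest, at −0.25 and 0.11 in experiment 1 and −0.30 and −0.19 in experiment 2 (mean −0.16 ± 0.12, adjusted p = 0.305), below 0 on 3 arrays. PSMD14, the deubiquitinase that strips ubiquitin from substrates, had 0.12 and 0.37 in experiment 1 and −0.03 and 0.09 in experiment 2 (mean 0.14 ± 0.16, adjusted p = 0.249), from 2 probes with 0.10 and 0.18. Its partner PSMD7 had 0.04 ± 0.27. The other scaffold genes of the lid had 0.37 ± 0.43 (PSMD3), 0.30 ± 0.08 (PSMD13), 0.28 ± 0.10 (PSMD12) and 0.22 ± 0.33 (PSMD11), none past the test, with adjusted p from 0.125 for PSMD12 to 0.284 for PSMD11. PSMD3 passed without CHX experiment 2 (0.68, adjusted p = 0.0237), and PSMD13 without either R1881 experiment (0.30, adjusted p = 0.0334).

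Of the 3 genes of the immunoproteasome 1 fell with CHX and no member rose. Their median was 0.11, but −0.03 on the arrays with the treated RNA in Cy3 and 0.02 without CHX experiment 2. PSMB10, which takes the place of PSMB7, had −0.84 and −1.03 in experiment 1 and −0.79 and −0.70 in experiment 2, all 4 arrays below −0.7. PSMB8, which takes the place of PSMB5, had −0.21 and 0.24 in experiment 1 and 0.15 and 0.27 in experiment 2 (mean 0.11 ± 0.13, adjusted p = 0.256). PSMB9, which takes the place of PSMB6, had 0.28 and 0.08 in experiment 1 and −0.004 and 0.19 in experiment 2 (mean 0.14 ± 0.06, adjusted p = 0.131). The arrays of PSMB8 and PSMB9 do not overlap with those of PSMB10. The 95% intervals ran from −0.06 to 0.28 for PSMB8 and from −0.01 to 0.28 for PSMB9. PSMB11 and PSMA8, the thymic and the testis-specific subunit, were not measured here.

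Of the assembly chaperones of the base, 2 rose and 1 fell. PSMD9 had 1.56 and 1.32 in experiment 1 and 1.22 and 1.28 in experiment 2, all above 1.2. PSMD5 rose by less, with 0.30 ± 0.03 (adjusted p = 0.00756), and lost its call without CHX experiment 2 (0.28, adjusted p = 0.0562). PSMD10, the oncoprotein gankyrin, had −0.29 and −0.48 in experiment 1 and −0.37 and −0.31 in experiment 2, a mean of −0.36 ± 0.03 (adjusted p = 0.0351), below 0 on every array. Its call was lost without CHX experiment 1 (−0.34, adjusted p = 0.178), without CHX experiment 2 (−0.38, adjusted p = 0.126) and without either CHX plus R1881 experiment (−0.36, adjusted p = 0.0551).

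Among the activators 1 rose and 2 fell (median −0.24). PSME4, which encodes PA200, a cap that serves the degradation of acetylated histones, had 1.22 and 1.06 in experiment 1 and 0.92 and 0.84 in experiment 2, a mean of 1.01 ± 0.18 (2.01-fold, adjusted p = 0.00103). PSME1, the alpha subunit of the interferon-inducible cap PA28, had −0.86 and −0.81 in experiment 1 and −0.97 and −0.57 in experiment 2, all below −0.5. Its partner PSME2 had −0.58 and −0.52 in experiment 1 and −0.30 and −0.17 in experiment 2, a mean of −0.39 ± 0.22 (adjusted p = 0.0457), and every array of PSME4 lay above 0 while every array of PSME1 and PSME2 lay below. PSME3, the nuclear relative of PA28, had −0.09 ± 0.15 (adjusted p = 0.536). The call of PSME2 was lost without CHX experiment 1 (−0.23, adjusted p = 0.322) and without either R1881 experiment (−0.39, adjusted p = 0.0935). RefSeq names 6 pseudogenes of PSME2, and their part in its value was not tested.

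Calls with CHX also depended on how the arrays were brought to 1 scale. Both settings below gave the CHX arrays and the narrower R1881 and direct arrays a common spread, which shrank the CHX ratios. After quantile normalization between arrays 9 were lost, those of PSMA3, PSMA7, PSMB1, PSMB3, PSMB6, PSMC2, PSMC3, PSMD10 and PSME2, with adjusted p from 0.0589 for PSMB1 to 0.448 for PSMC2. All of these but PSMB1 were also lost when arrays were scaled to the same spread, with adjusted p from 0.0653 for PSMA7 to 0.163 for PSMC2. From 1 dye orientation alone, PSMB3, PSMB6 and PSME2 were lost in either, PSMD10 in Cy3 (adjusted p = 0.0864), and PSMA3 and PSMC2 in Cy5 (adjusted p = 0.0522 and 0.0504).

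With CHX plus R1881 versus control, 12 of the 41 rose (20.8% of all genes did) and 5 fell (16.6% of all genes), with a median of 0.20. Without either experiment of CHX plus R1881 the number that fell was 3. Both comparisons are with untreated control cells, and whether the same control RNA served both is not stated, so the 2 sets of values are given side by side and not as independent evidence. PSMD6 had 1.40 and 1.12 in experiment 1 and 1.70 and 1.56 in experiment 2 (mean 1.45 ± 0.26, adjusted p = 0.00046), and PSMD9 had 1.54 and 1.24 in experiment 1 and 1.29 and 1.42 in experiment 2 (mean 1.37 ± 0.02, adjusted p = 0.000191). Both were the highest of their class again. PSMB10 had −0.95 and −0.74 in experiment 1 and −0.88 and −1.02 in experiment 2 (mean −0.90 ± 0.08, adjusted p = 0.000687), and PSME1 had −0.88 and −0.73 in experiment 1 and −0.88 and −0.54 in experiment 2 (mean −0.76 ± 0.06, adjusted p = 0.000441), all below 0. The other genes that rose were PSMA1, PSMA6, PSMA7, PSMB1, PSMB4, PSMC1, PSMC4, PSMC6, PSMD5 and PSME4, and the other genes that fell were PSMB3, PSMD10 and PSME2. By class, 5 core genes rose and 1 fell, 3 base genes and 1 lid gene rose, and 1 immunoproteasome gene fell. The core median was 0.15, and 0.25 without experiment 2 of CHX plus R1881. PSMC4, an ATPase of the base, was called here (0.44 ± 0.14, adjusted p = 0.0232) and had 0.28 ± 0.24 (adjusted p = 0.096) in CHX versus control. PSMA3, PSMB6, PSMC2 and PSMC3 were called with CHX and had 0.26 ± 0.16, 0.12 ± 0.07, 0.28 ± 0.02 and −0.25 ± 0.09 here (adjusted p = 0.0544, 0.248, 0.0965 and 0.0506).

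8 of the 17 calls in CHX plus R1881 versus control were lost when 1 of its own experiments was left out. Without experiment 1 of CHX plus R1881 the calls of 6 genes were lost: PSMA7 (0.41, adjusted p = 0.248), PSMB1 (0.42, adjusted p = 0.0865), PSMC1 (0.76, adjusted p = 0.0767), PSMC4 (0.35, adjusted p = 0.198), PSMD10 (−0.53, adjusted p = 0.0689) and PSME2 (−0.35, adjusted p = 0.14). Without experiment 2 the calls of 5 genes were lost: PSMA6 (0.39, adjusted p = 0.0668), PSMB3 (−0.34, adjusted p = 0.0626), PSMC1 (0.59, adjusted p = 0.118), PSMC4 (0.54, adjusted p = 0.0613) and PSMD10 (−0.41, adjusted p = 0.112). PSMA7 was also lost without either R1881 experiment (0.72, adjusted p = 0.0617). Without either CHX experiment, PSMB8 (0.21, adjusted p = 0.0467), PSMC5 (0.26, adjusted p = 0.0328), PSMD2 (0.34, adjusted p = 0.0406) and PSMD3 (0.45, adjusted p = 0.0242) passed. Without either R1881 experiment, PSMC2 (0.28, adjusted p = 0.0359) and PSMD13 (0.27, adjusted p = 0.0439) passed. After quantile normalization PSMA7, PSMB1, PSMC4 and PSMD10 were lost (adjusted p = 0.0673, 0.113, 0.108 and 0.216).

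**Figure D2:**
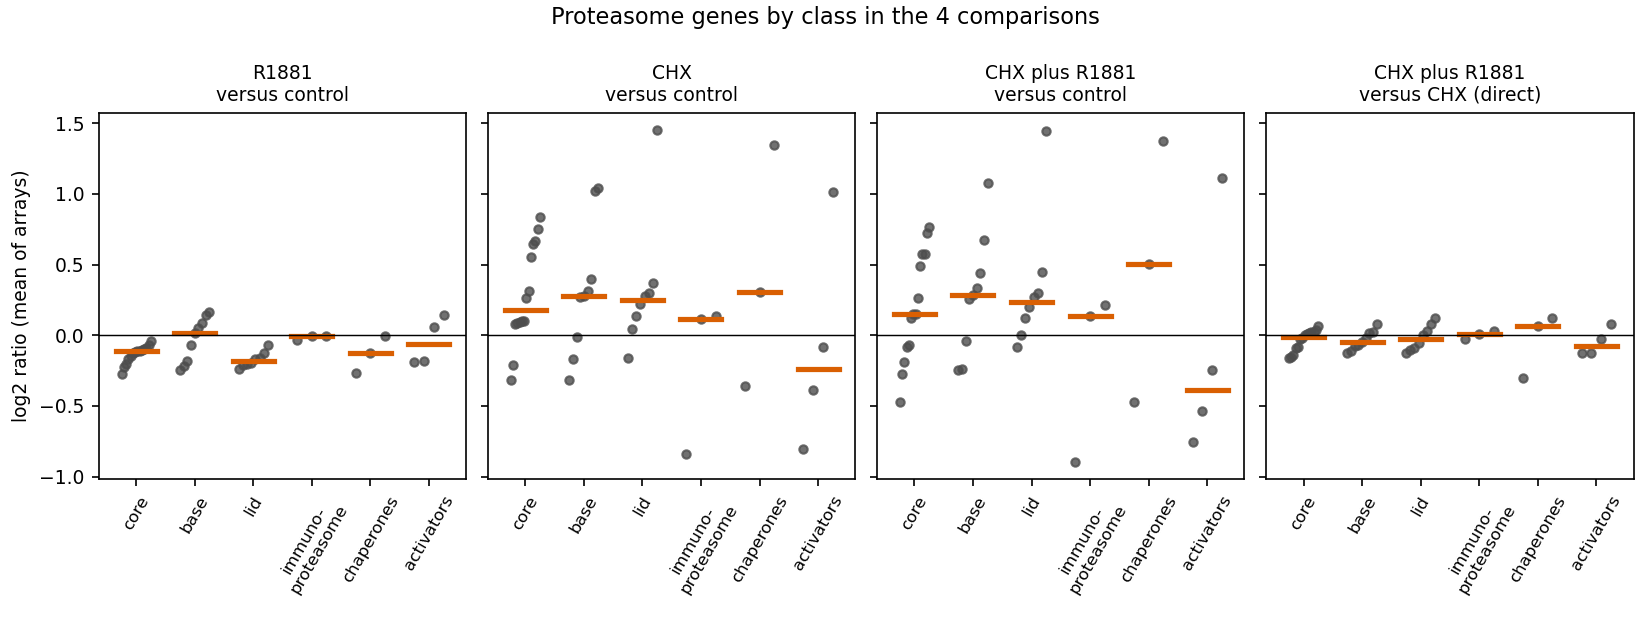
Mean log2 ratio of each of the 41 proteasome genes (points) by class in the 4 comparisons, with the class median as a bar. Medians of core, base and lid lie at 0.18, 0.28 and 0.25 in CHX versus control (in experiment 1 alone at 0.21, 0.14 and 0.35, in experiment 2 alone at 0.24, 0.35 and 0.14), and all points of the R1881 and the direct comparison lie from −0.30 to 0.17.

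With R1881 versus control, which asks what androgen does when protein synthesis runs, no proteasome gene passed the test. 0 of 41 were called in limma with Benjamini-Hochberg adjustment (0.00687% of all genes, which is 1 gene), and 3 had an unadjusted p under 0.05 (921 of 14547 genes): PSME1, PSMD10 and PSMC3. The means leaned low: 34 of 41 were below 0 (50.0% of all genes were), with a median of −0.12 against −9.7e-05 for all genes. All 14 core genes (median −0.11) and all 8 lid genes (median −0.18) were below 0, while 5 of the 9 base genes, PSMC1, PSMC5, PSMD1, PSMD2 and PSMD4, were above 0 (base median 0.02). The lean of lid and core was larger in experiment 2: 4 of 8 lid genes were below 0 in experiment 1 and 8 of 8 in experiment 2, with medians of −0.0035 and −0.34, and the core had 12 and 14 of 14 below 0, with medians of −0.05 and −0.21. The base median took both signs, at −0.03 in experiment 1 and 0.08 in experiment 2, and at −0.04 on the Cy3 and −0.06 on the Cy5 arrays. For all 41 the median was −0.02 in experiment 1 and −0.20 in experiment 2. The 3 immunoproteasome genes had a median of −0.01. These shares were not tested, and the size of each shift was small, from −0.27 for PSMB7 to 0.17 for PSMD1.

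The lean differed between arrays. Of the 41 genes, 18 were below 0 on the Cy3 array of experiment 1, 29 on its Cy5 array, 31 on the Cy3 array of experiment 2 and 34 on its Cy5 array, while 47.7% to 52.2% of all genes were below 0 on these arrays. The Cy3 array of experiment 1 thus showed no lean (median 0.01), and the Cy5 array of experiment 2 the strongest (median −0.23). Across the 41 genes the 2 dye orientations had a Pearson's r of −0.10 (experiment 1) and 0.58 (experiment 2), against 0.92 and 0.93 for CHX. Over all probes r was 0.13 and 0.22, against 0.88 and 0.79 for CHX, so the R1881 arrays as a whole differed between orientations. These values describe genes or probes on 2 arrays of the same RNA, which are not independent replicates. 8 of the 41 (19.5%, against 13.0% of all genes) were below 0 on all 4 arrays: PSMB4, PSMB7, PSMC3, PSMC4, PSMD3, PSMD10, PSME1 and PSME2.

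Of these 8, the lowest means were those of PSMB7, PSMD10 and PSMC3. PSMB7 had −0.13 and −0.19 in experiment 1 and −0.28 and −0.50 in experiment 2 (mean −0.27 ± 0.16, adjusted p = 0.784). PSMD10 had −0.09 and −0.07 in experiment 1 and −0.58 and −0.33 in experiment 2 (mean −0.27 ± 0.27, adjusted p = 0.757). Both were lower in experiment 2 than in experiment 1. PSMC3 had −0.16 and −0.04 in experiment 1 and −0.42 and −0.24 in experiment 2 (mean −0.22 ± 0.16, adjusted p = 0.722). PSME1 varied least, at −0.19 and −0.21 in experiment 1 and −0.18 and −0.18 in experiment 2 (mean −0.19 ± 0.01, adjusted p = 0.627). After quantile normalization, which gives all arrays 1 distribution, PSME1 passed in limma (−0.38, adjusted p = 0.0484). That setting widens R1881 ratios, since the SD over all probes was 0.18 to 0.25 on R1881 arrays and 0.57 to 0.62 on CHX arrays. The share of all genes that passed in it is not given here. PSME2 had −0.18 ± 0.03 (adjusted p = 0.915). On the other side PSMD2 was the only 1 of the 41 above 0 on all 4 arrays, at 0.06 and 0.03 in experiment 1 and 0.25 and 0.24 in experiment 2 (mean 0.14 ± 0.14, adjusted p = 0.962). Of the genes with the largest changes under CHX besides PSME1, PSMD6 had −0.13 ± 0.15 with R1881, PSMD9 −0.13 ± 0.11, PSMC1 0.09 ± 0.07, PSMC6 −0.07 ± 0.14, PSME4 0.06 ± 0.19 and PSMB10 −0.01 ± 0.13, none past the test.

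**Figure D3:**
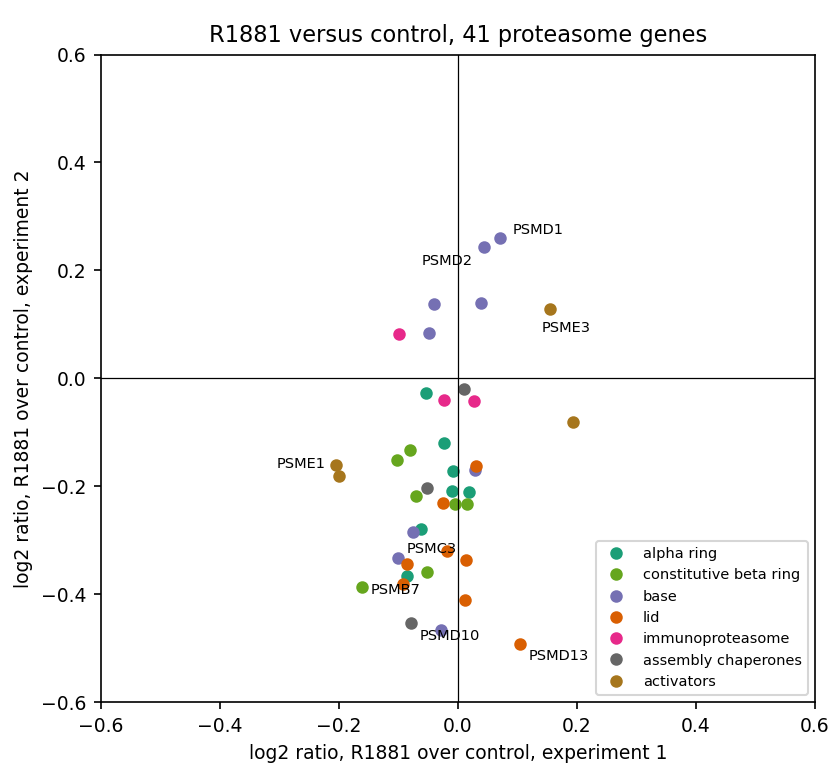
Log2 ratio of R1881 over control for the 41 proteasome genes in experiment 1 (horizontal axis) and experiment 2 (vertical axis), each the mean of 2 dye orientations, coloured by class. Values spread from −0.49 to 0.26 in experiment 2 and from −0.20 to 0.19 in experiment 1, and none of the 41 passed the test.

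The question whether androgen moves these genes without new protein was addressed by CHX plus R1881 minus CHX, and here 0 of 41 were called (0% of all genes in limma), with 1 unadjusted p under 0.05 (186 of all genes) and a median of −0.03. That 1 gene was the chaperone PSMD5, with 0.20 (95% interval 0.01 to 0.39, adjusted p = 1.00). The R1881 response without CHX minus that in its presence also gave 0 of 41 (0% of all genes), with no unadjusted p under 0.05 among the 41 (357 of all genes) and a median of −0.05. It ranged from −0.35 for PSMC4 (95% interval −0.81 to 0.12) to 0.46 for PSMC1 (95% interval −0.17 to 1.08), and both intervals include 0. The fit took CHX and CHX plus R1881 as independent. Deviations of their same-numbered experiments correlated at 0.56 over all genes and 0.77 over the genes of the naming rule. If those experiments are paired, the intervals of CHX plus R1881 minus CHX are too wide.

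The 2 direct arrays of CHX plus R1881 against CHX come from 1 experiment and have no replicate. The median of the 41 was −0.02, and the medians of core, base, lid and immunoproteasome were −0.01, −0.05, −0.03 and 0.01. PSMD10 was the lowest, with −0.32 and −0.29, and PSMD8 the highest, with 0.01 and 0.24. For PSMD10, picked as the lowest of the 41, both dye orientations gave nearly the same value. In the fit over both experiments, CHX plus R1881 minus CHX was −0.11 for PSMD10 (unadjusted p = 0.463 in limma). For 19 of the 41 the 2 orientations differed in sign. Pearson's r between the orientations was 0.39 across the 41 genes and −0.04 over all probes. The direct arrays as a whole thus differed between orientations. PSMD6 had −0.05 and 0.05, PSMB10 −0.05 and 0.003 and PSME1 −0.02 and −0.03.

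The 3 genes that share the naming pattern without being subunits were below 0 with CHX. PSMC3IP had −0.34 ± 0.10 (adjusted p = 0.0204) and PSME3IP1 −0.36 ± 0.09 (adjusted p = 0.011), both of which fell, and the pseudogene PSMD4P1 had −0.16 ± 0.18 (adjusted p = 0.152). With R1881, PSMC3IP had 0.50 and 0.42 in experiment 1 and 0.22 and 0.25 in experiment 2 (mean 0.35 ± 0.16, adjusted p = 0.487), the highest of the 44 and above 0 on all arrays. It passed when the 4 arrays were fitted with the experiment as a random block (adjusted p = 0.0262). The fall of PSMC3IP with CHX did not pass without CHX experiment 1 (−0.27, adjusted p = 0.158) or without CHX experiment 2 (−0.41, adjusted p = 0.05003), and that of PSME3IP1 did not pass without CHX experiment 1 (−0.29, adjusted p = 0.0972). With R1881, PSME3IP1 was above 0 on all 4 arrays as well, at 0.03 and 0.04 in experiment 1 and 0.14 and 0.08 in experiment 2, with a mean of 0.07 ± 0.05 (adjusted p = 0.999).

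Genes that build, regulate and feed the proteasome moved in both directions with CHX. Of 15 other proteasome genes 12 were measured, of which 7 rose and 1 fell (median 0.48). Over all genes 20.5% rose and 17.4% fell, the shares against which the counts of this and the next 3 lists stand. The 1 that fell was POMP, the chaperone that completes maturation of the core, with −1.78 ± 0.23 (3.44-fold lower, adjusted p = 0.000226), lower than any of the 41. PSMG1, which starts assembly of the alpha ring, rose (0.93 ± 0.13), as did the lid subunit SEM1 (0.91 ± 0.24; after quantile normalization 0.63, adjusted p = 0.0651) and the core inhibitor PSMF1 (0.53 ± 0.03). Without CHX experiment 2 the number of this list that rose was 4.

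In the list of the NFE2L1 axis 9 of 10 genes were measured, 4 rose and 1 fell (median 0.21). NFE2L1 itself fell, with −0.90 ± 0.11 (adjusted p = 0.00773), and without CHX experiment 1 it did not pass (−0.83, adjusted p = 0.0655), nor after quantile normalization (−0.61, adjusted p = 0.062). NGLY1, which removes the sugars from the NFE2L1 protein, rose by 1.96 ± 0.10 (3.88-fold, adjusted p = 0.000508). MAFG, a small MAF protein that pairs with NFE2L1, rose as well (0.93 ± 0.23), and so did BACH1 (0.42 ± 0.06), a repressor at the same sites.

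Of 24 ubiquitin genes, activating and conjugating enzymes and shuttles 16 were measured, with 5 that rose and 3 that fell (median 0.04, and 0.08 in experiment 1 and 0.0080 in experiment 2). UBB, a polyubiquitin gene, fell most, to −2.26 ± 0.21 (4.78-fold lower, adjusted p = 0.000223). The shuttles UBQLN1 and RAD23B, which carry ubiquitinated proteins to the proteasome, rose by 1.25 ± 0.05 and 0.70 ± 0.19, and the conjugating enzyme CDC34 by 0.98 ± 0.31. In antigen processing and interferon signalling 18 of 22 genes were measured, with 6 that rose and 4 that fell (median −0.02, and 0.12 in experiment 1 and −0.05 in experiment 2). Without CHX experiment 2 the number that fell was 2. The interferon-gamma receptor chains moved in opposite directions, IFNGR1 to 0.85 ± 0.03 and IFNGR2 to −0.68 ± 0.16. IRF1, a transcription factor that induces immunoproteasome genes, rose by 0.90 ± 0.24, while CALR, a chaperone of MHC class I loading, fell to −1.50 ± 0.54. With R1881 versus control none of these 4 lists held a called gene in limma. After quantile normalization, which widens the R1881 ratios, POMP passed in limma (−0.70, adjusted p = 0.0393, against −0.30 in the main fit). Their unadjusted p was under 0.05 for 2 of the 12 other proteasome genes and for none of the other 3 lists.

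**Figure D4:**
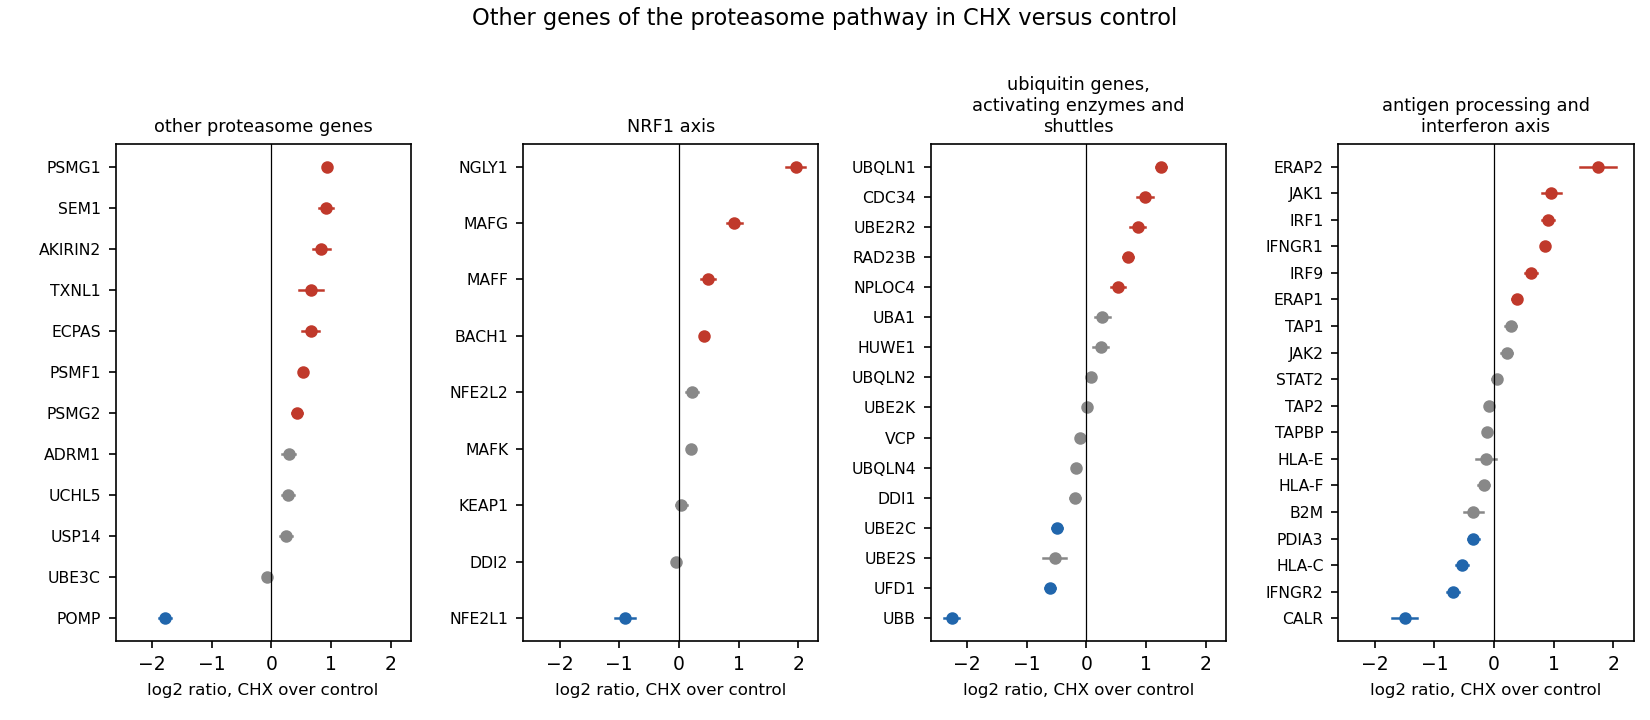
Mean log2 ratio of CHX over control (points, with the standard error of the fit as a line) for the measured genes of 4 lists around the proteasome. Red genes rose, blue genes fell and grey genes did not pass the test. POMP stands alone on the left of the first list at −1.78, and NFE2L1 on the left of the second at −0.90.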

How the data were processed

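Log ratios were deposited for 14 arrays of 27648 probes without missing values. Per the values, the deposited ratios are on a scale taken as log2, with array medians from −0.0037 to 0.0035. How the authors corrected background, normalized, and filtered is not given in the sources used here, and base, centring and direction stay unstated. All values were multiplied by −1. Names came from the platform annotation, updated through accessions for 14721 of the 17711 named probes. The other 9937 probes were left out.

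Probes were averaged to 14547 genes and the 2 dye orientations of an experiment to 1 value, leaving 6 ratios against control. These were fitted in limma 3.58.1 (R 4.3.3) with 1 term per treatment, 3 residual and 2.57 prior degrees of freedom, and Benjamini-Hochberg adjustment over all genes. The fit was tested on simulated data with changes in CHX versus control. It recovered 60% of changes of log2 0.58, 81% of those of 1 and 96% of those of 2, with 10 false calls among the unchanged genes. These sizes were given to 50, 100 and 50 of the 14547 genes, whereas 2983 genes rose and 2538 fell with CHX in the data. The Benjamini-Hochberg cut depends on the number of changed genes, so these shares do not give the recovery in the real comparisons. Smaller changes were not simulated. The simulated noise was independent between the 6 ratios, unlike the deviations of same-numbered experiments in the data. A called gene had an adjusted p under 0.05, and 1.5-fold was a second limit. Summaries and plots used Python 3.11.15, pandas 2.3.3, numpy 2.4.6 and matplotlib 3.10.9.

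Every member is named with its CHX ratio. Array values were given for the highest and lowest of each class, the catalytic subunits, PSMD4, PSMD14, the extremes with R1881 among genes of 1 sign on all arrays, and genes with probes of opposite sign. Up to 4 called genes of smallest p came from each further list. Members and lists were chosen with earlier results of these data known. Alternatives were a replicate block, a random block, leaving out each experiment, single dye orientations, quantile and scale normalization, median probes, single probes (the probe of smallest p per gene) and the fold limit.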

Additional observations from a re-analysis of the deposited data

How the results depend on the processing

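No called value turned its direction under the alternatives run. Of the proteasome genes called, 10 of 20 in CHX versus control and 9 of 17 in CHX plus R1881 versus control kept their call under all 14 alternatives. Among these alternatives, median probes and single probes could hardly lose a call, since most of these genes have 1 probe. In the single-probe setting the probe of smallest p stood for its gene, which favours keeping a call. The number that fell with CHX, 6, was 2 to 5 when an experiment was left out, 3 on the Cy3 arrays, 2 after quantile normalization, 2 after scaling to the same spread and 2 with the 1.5-fold limit. The number that rose, 14, was 9 after quantile normalization and 9 with the fold limit. In CHX plus R1881 versus control 7 rose and 2 fell with the fold limit, and 3 to 5 fell when an experiment was left out. In R1881 versus control 1 gene, PSME1, fell after quantile normalization, a setting that widens the R1881 ratios. With the experiment as a replicate block 20 rose and 7 fell with CHX, and 17 rose and 8 fell with CHX plus R1881. Deviations of same-numbered experiments correlated over all genes at 0.29 (R1881 and CHX), 0.17 (R1881 and CHX plus R1881) and 0.56 (CHX and CHX plus R1881). Over the 44 genes that fit the naming rule they correlated more strongly, at 0.59, 0.42 and 0.77 in the same order. With only 2 experiments this does not establish a pairing, and the main fit did not use one. The core median with CHX, 0.18, was 0.13 after quantile normalization, 0.12 after scaling and 0.21 to 0.24 without an experiment. The core median with CHX plus R1881, 0.15, was 0.25 without experiment 2. The base median with CHX plus R1881, 0.28, was 0.21 after quantile normalization, 0.20 after scaling and 0.32 on the Cy5 arrays. On the direct arrays the base median, −0.05, was −0.16, −0.11 and −0.0237 in the same order, and the lid median, −0.03, was −0.0761 and −0.0543 under the first and second of these. With R1881 the base median, 0.02, was −0.03 to 0.08 without an experiment, and the lid median, −0.18, was −0.0035 to −0.34. With CHX the base median, 0.28, was 0.14 to 0.35 and the lid median, 0.25, was 0.14 to 0.35. The immunoproteasome median with R1881, −0.01, was −0.042 after quantile normalization, −0.0359 after scaling, −0.0536 on the Cy3 arrays and −0.0229 to −0.0399 without an experiment. With CHX it was 0.11, but −0.0292 on the Cy3 arrays and 0.0184 to 0.0940 without 1 of the CHX experiments, and on the direct arrays 0.01, but −0.0542 on the Cy3 array. Quantile normalization and scaling to the same spread treated all arrays together. As deposited, the SD over all probes was 0.57 to 0.62 on the arrays of both CHX comparisons with control. It was 0.18 to 0.25 on the R1881 arrays and 0.13 to 0.20 on the direct arrays. A common spread therefore shrinks the first and widens the others. Causes of the shifts under the other settings were not tested. No intensities were used here, so probes near background could not be set apart, and 2 experiments per treatment limit the precision.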
